A study of Homo sapiens with 2 samples.

Results

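Glycolysis, the pentose phosphate pathway and the entry of pyruvate into mitochondria were described here through 35 genes that encode their transporters, enzymes and regulators. The genes were chosen by name, as a panel of the pathway in step order, and a gene's value was taken from probe sets annotated to it alone. Of the 35 genes, 33 had such a probe set among the 19775 genes named on the array, and 30 were measured above the floor described below on at least 1 of the 2 arrays. The cells were DLD-1, a human colon carcinoma line whose own p53 is mutated, stably transfected with wild-type p53 under tet-off control, a system in which tetracycline shuts the transgene off. The p53 on array came from cells kept without tetracycline for 9 h, and the p53 off array from cells kept with it. Both conditions share the cell line and the construct and differ in tetracycline itself as well as in the p53 label. Each condition was measured on 1 array, so that no test, standard error or p-value could be given, and each ratio describes these 2 arrays.

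Glycolysis splits glucose into pyruvate in the cytosol. Its pace is set largely at glucose uptake, at hexokinase and at phosphofructokinase, and the last of these is activated by the sugar fructose 2,6-bisphosphate, which the PFKFB enzymes make and degrade and which TIGAR, an enzyme induced by p53, degrades. Pyruvate is then reduced to lactate or oxidised in mitochondria by the pyruvate dehydrogenase complex, which the PDK kinases switch off, while glucose 6-phosphate can leave for the pentose phosphate pathway, a source of NADPH and ribose.

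The deposited values are MAS5 signals on a linear scale. Signals under a floor of 112.4, the median of all signals that were not controls, were set to that floor, and a gene under it on both arrays has no ratio and is called not measured. The trimmed mean signal was 499.9 on both arrays, and the median of all measured genes lay at a log2 ratio of 0.0035, p53 on over p53 off. As a check of the labels, 7 of 7 measured p53 target genes were at least 1.5-fold higher with p53 on. One of them was CDKN1A, the gene of a cyclin-dependent kinase inhibitor, at signals of 23349 with p53 on and 2723 with p53 off. The induction of p53 itself was not analysed here. Of 9 colon epithelial markers, 8 were above the floor on the p53 on array and 7 on the p53 off array, with KRT20, a differentiation keratin, under it on both. The summed signal of 4 leukocyte markers was 494.5 with p53 on and 248.0 with p53 off, that of 6 fibroblast markers 820.6 and 375.9, and that of 5 endothelial markers 617.9 and 389.4. PTPRC, CD3E, CD14, COL1A1, COL3A1 and KDR were under the floor on both arrays. The brightest of each list with p53 on were LAPTM5, a leukocyte marker, at 247.9 with p53 on and 62.7 with p53 off, LUM, of fibroblasts, at 231.4 and 49.4, and PECAM1, of endothelium, at 224.3 and 121.1. On the p53 on array 1 of 4, 3 of 6 and 3 of 5 of these markers were above the floor. On the p53 off array it was 0, 1 and 2. Of all probe sets that were not controls, 52.2% were at or above it with p53 on and 47.8% with p53 off. The part of these markers in the ratios below was not tested.

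With p53 on, 10 of the 30 measured genes exceeded p53 off by 1.5-fold or more (33.3%), 8 lay below it by that size (26.7%) and 12 were between. Over all 13915 measured genes the higher share was 25.9% and the lower share 25.9%, so that the shares of the pathway lay near those of the array. At 2-fold the count was 6 higher and 3 lower, against 15.3% higher and 13.5% lower over the array. The median log2 ratio of the 30 genes was -0.04, against 0.0035 over all measured genes, and the single ratios ran from -1.47 for PFKP to 3.003 for PDK3. The split depended on scaling. After quantile normalization 6 of 31 measured pathway genes were higher and 10 lower, against 23.6% and 26.9% of the array. After loess it was 6 and 9 of 31, against 24.8% and 24.9%. With the arrays scaled to the hybridization spike-ins, which moved the median of all measured genes to -0.80, it was 4 (12.9%) and 18 (58.1%) of 31, against 9.55% and 58.7%, so that these shares too lay near those of the array. Quantile normalization and loess left the median of all measured genes at -0.07 and -0.03. The split thus did not depend on that median alone, and directions below are those of the deposited scaling.

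**Figure D1:**
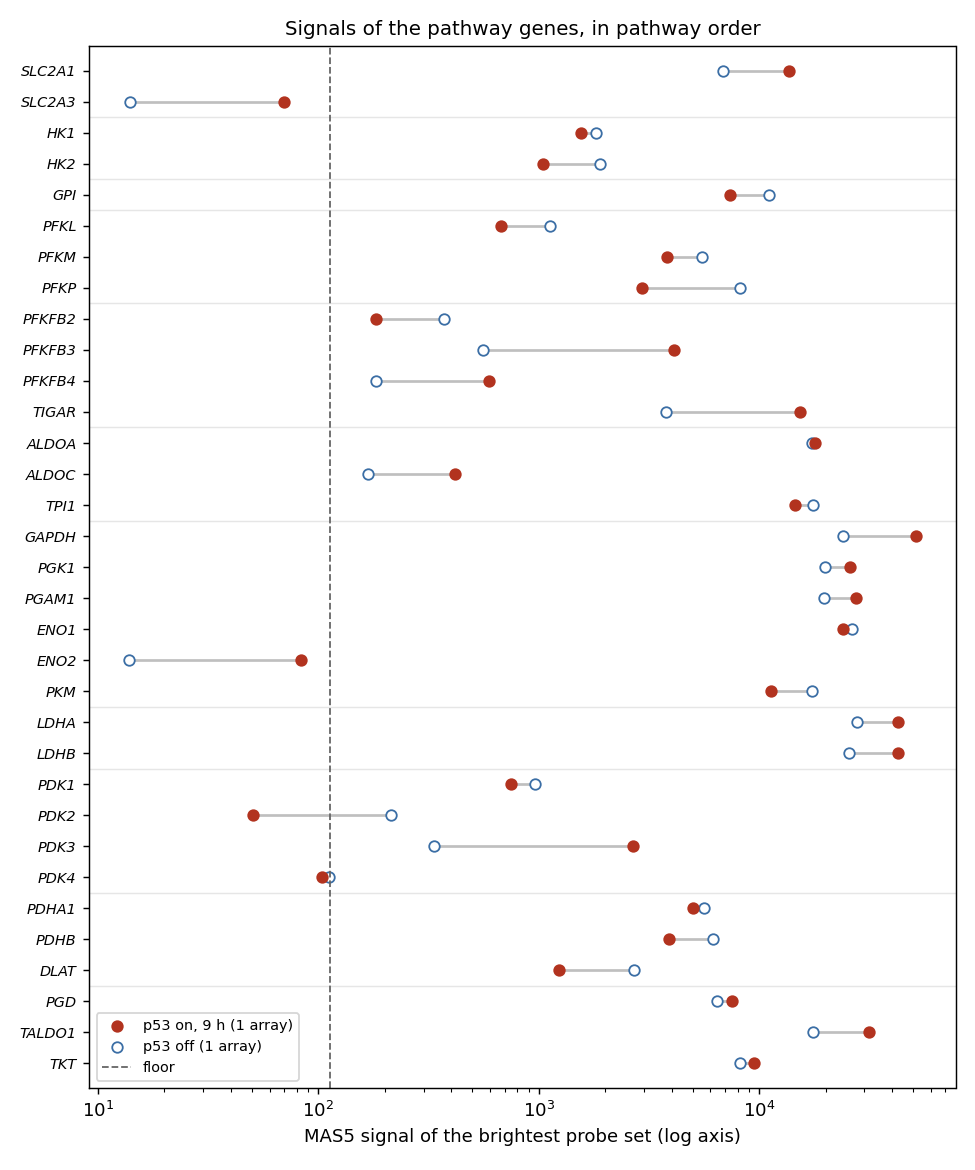
Signal of the brightest probe set of each gene on the p53 on array (filled) and the p53 off array (open), on a log axis and in pathway order; each point is 1 array and the dashed line is the floor of 112.4. The widest gaps above the floor are those of PDK3, PFKFB3 and TIGAR, all higher with p53 on, and SLC2A3, ENO2 and PDK4 lie under the floor on both arrays.

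The only measured uptake gene of the panel had a higher signal with p53 on, and the genes of the first enzymes had lower ones, not all past 1.5-fold. SLC2A1, the gene of the glucose transporter GLUT1, had a signal of 13666 with p53 on and 6844 with p53 off, a log2 ratio of 0.998. Its other probe set, at 1486 with p53 on and 631.5 with p53 off, gave 1.23, so that both were higher with p53 on. With spike-in scaling the log2 ratio of the brightest was 0.079. SLC2A3, of the transporter GLUT3, was not measured, with 69.9 and 14.0 on its brightest of 3 probe sets.

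Both hexokinase genes, whose enzymes trap glucose as glucose 6-phosphate, had lower signals with p53 on. HK2, the form that many tumours raise, had 1048 with p53 on and 1900 with p53 off and was 1.81-fold lower. All 3 of its probe sets were lower, at log2 ratios of -0.98 to -0.86, of which those of the dim pair are bounds. HK1, the form of most tissues, had 1547 and 1812 on its single probe set, a log2 ratio of -0.23, within 1.5-fold. GPI, which converts glucose 6-phosphate to fructose 6-phosphate, had 7373 with p53 on and 11022 with p53 off, a log2 ratio of -0.58 and 1.49-fold lower, just short of 1.5-fold.

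The 3 phosphofructokinase genes, which encode the platelet, liver and muscle forms of the committed step of glycolysis, were lower with p53 on. PFKP, the platelet form, stood at 2946 with p53 on and 8173 with p53 off, 2.77-fold lower and the lowest ratio of the 30 genes. Its other probe set, at 43.5 and 144.5, was at least 1.29-fold lower. PFKL, the liver form, had 675.6 and 1127 on its brightest probe set, 1.67-fold lower, but 835.8 and 905.2 on the other, a log2 ratio of -0.12, and the mean of both was -0.43. PFKM, the muscle form, had 3802 with p53 on and 5518 with p53 off on its single probe set and was 1.45-fold lower. No probe set of the 3 genes was higher with p53 on, and the ratios of the 3 genes stayed negative under every processing that gave a value.

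The enzymes that set the level of fructose 2,6-bisphosphate held 3 of the 6 genes that were at least 2-fold higher. PFKFB3, a PFKFB form with strong kinase activity that raises this sugar, had a signal of 4100 with p53 on and 555.3 with p53 off and was 7.38-fold higher. TIGAR, which acts on the same sugar as a phosphatase, had 15269 with p53 on and 3785 with p53 off and was 4.03-fold higher. PFKFB4, another PFKFB form, had 595.3 and 181.7 and was 3.28-fold higher on the brighter of its probe sets, while its other probe set was under the floor on both arrays. PFKFB2, the form best known from heart, went the other way. It had 183.2 with p53 on and 372.3 with p53 off, 2.03-fold lower, and its second measured probe set gave a log2 ratio of -0.58. Genes whose products raise and lower the sugar were thus both among the higher ones. PFKFB3, PFKFB4 and TIGAR each rested on 1 measured probe set, so that no second probe set could be set beside their ratios.

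The next steps differed between isoforms. ALDOC, the aldolase best known from brain, had a signal of 415.3 with p53 on and 167.2 with p53 off on its single probe set and was 2.48-fold higher, with a log2 ratio of 0.39 under spike-in scaling. ALDOA, the aldolase of most cells, had 17905 and 17283 on its brightest probe set, a log2 ratio of 0.05. Its second probe set gave -0.05, but the third, at 1334 with p53 on and 2756 with p53 off, gave -1.05. TPI1, the triose phosphate isomerase, had 14534 and 17548, a log2 ratio of -0.27, and was lower on all 3 of its probe sets.

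Of the lower glycolytic enzymes, GAPDH, which makes the first NADH of the pathway, was the only one of 5 measured genes past 1.5-fold upwards. It had 51534 with p53 on and 23939 with p53 off, 2.15-fold higher, and its 3 probe sets agreed in sign at log2 ratios of 0.93 to 1.11. The log2 ratio was 0.23 after quantile normalization, 0.576 after loess, just under 1.5-fold, and 0.011 when scaled to the spike-ins. The array also carries GAPDH control probe sets placed along the transcript. The one at the 3' end read 58079 with p53 on and 31016 with p53 off, 1.87 times, the middle one 38484 and 27624, 1.39 times, and the one at the 5' end 32829 and 31837, 1.03 times. The difference between the arrays was thus smaller toward the 5' end. For beta-actin the same 3 positions gave 1.53, 0.39 and 0.29 times. The part of this 3' bias in the ratios of the other genes was not tested.

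**Figure D2:**
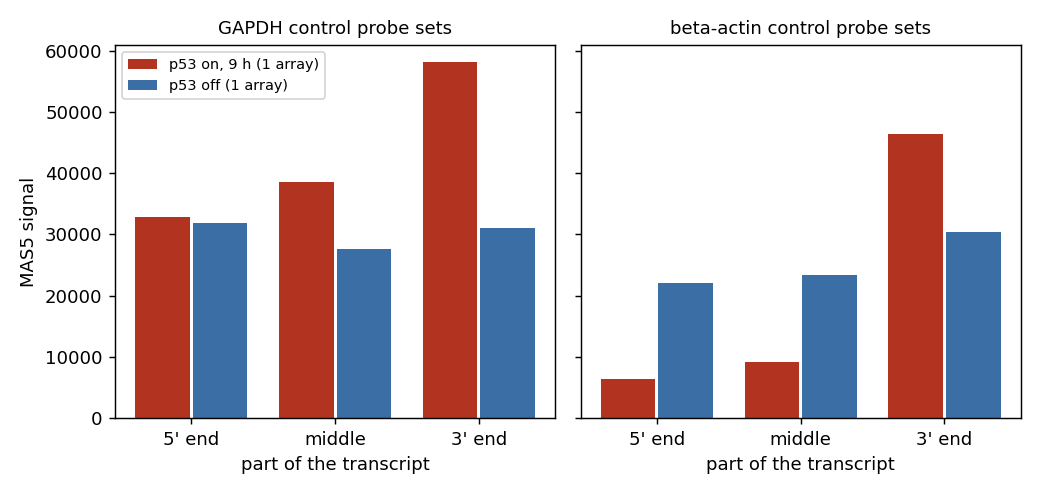
Signal of the control probe sets of GAPDH (left) and beta-actin (right) at the 5' end, middle and 3' end of the transcript, with the p53 on array left of the p53 off array in each pair; each bar is 1 array. With p53 on, the 3' end reads 1.77 times the 5' end for GAPDH and 7.29 times for beta-actin, against 0.97 and 1.37 times with p53 off.

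PGK1, which makes the first ATP of glycolysis, had no settled direction. Its brightest probe set read 25896 with p53 on and 19944 with p53 off, a log2 ratio of 0.38, but the second read 7756 and 10219, at -0.40. Over its 5 measured probe sets 2 were higher and 3 lower. PGAM1, the phosphoglycerate mutase, had 27443 with p53 on and 19654 with p53 off on its single probe set, a log2 ratio of 0.48 that became -0.44 with spike-in scaling.

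ENO1, the enolase of most tissues, had 23948 with p53 on and 26330 with p53 off, a log2 ratio of -0.14, and all 4 probe sets were lower, 3 of them at -0.34 to -0.14 and the dimmest at -0.45 or less, since its p53 on signal of 97.8 was under the floor. ENO2, the neuronal enolase, was not measured, at 83.2 and 13.8. PKM, the pyruvate kinase whose M2 splice form is common in tumours, had 11317 with p53 on and 17325 with p53 off and was 1.53-fold lower. Its second probe set, at 404.3 and 613.3, gave a log2 ratio of -0.60, close to the -0.61 of the first.

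Both lactate dehydrogenase genes had higher signals with p53 on, and both ratios depended on scaling. LDHA, whose form favours lactate production, had 42853 with p53 on and 27914 with p53 off, 1.54-fold higher on its single probe set. LDHB, whose form is best known from heart, had 42717 and 25561 and was 1.67-fold higher, with 0.51 as the log2 ratio of its second probe set. After quantile normalization the log2 ratios were -0.11 for LDHA and 0.09 for LDHB, after loess 0.27 and 0.40, and with spike-in scaling -0.30 and -0.18. SLC16A1 and SLC16A3, the lactate transporters MCT1 and MCT4, were not analysed here, since no probe set annotated to either alone was among those used.

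The pyruvate dehydrogenase kinases, which phosphorylate and switch off the complex, differed among themselves. PDK3 had a signal of 2667 with p53 on and 332.8 with p53 off and was 8.01-fold higher, the highest ratio of the 30 genes. Its 3 other measured probe sets were also higher, at 1073 and 211.3, 506.0 and 116.2, and 175.4 and 104.7, with log2 ratios of 2.34, 2.12 and, as a bound, 0.64. One more probe set of PDK3 was under the floor on both arrays. PDK1, the kinase best known as a hypoxia target, had 745.5 with p53 on and 960.0 with p53 off, a log2 ratio of -0.36, and its second measured probe set gave -0.25.

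PDK2, the most widely expressed kinase, had 50.2 with p53 on, under the floor, and 213.0 with p53 off, at least 1.90-fold lower, and its second probe set was at least 1.61-fold lower. A floor set at the 60th percentile gave -0.34 as the bound on its log2 ratio. PDK4, the kinase raised in fasting, was not measured, at 103.5 and 112.0 on its brightest of 3 probe sets. Of the 3 measured kinase genes, PDK3 alone was thus higher by 1.5-fold on these arrays.

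The 3 subunit genes of the complex that are in the panel had lower signals with p53 on, on each of their 8 probe sets, though 1 was nearly level. DLAT, the acetyltransferase core, had 1235 with p53 on and 2715 with p53 off and was 2.20-fold lower, and its 3 probe sets gave log2 ratios of -1.93 to -1.14. PDHB, the beta subunit of the first enzyme, had 3885 and 6201 and was 1.60-fold lower, with -1.05 on its second probe set. PDHA1, the alpha subunit and the target of the kinases, had 5028 with p53 on and 5626 with p53 off, a log2 ratio of -0.16, but -0.85 on another bright probe set (3411 and 6170). Its dimmest probe set, at 668.2 with p53 on and 678.1 with p53 off, gave -0.02.

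Of the 3 pentose phosphate genes, TALDO1, the transaldolase of the non-oxidative branch, was past 1.5-fold. It had 31431 with p53 on and 17556 with p53 off on its single probe set, 1.79-fold higher, and its log2 ratio was 0.45 after quantile normalization, 0.571 after loess, just under 1.5-fold, and -0.079 with spike-in scaling. PGD, which makes NADPH in the oxidative branch, had 7497 and 6453, a log2 ratio of 0.22, and a dim second probe set, with 102.2 under the floor and 129.9, gave -0.21 as a bound. TKT, the transketolase, had 9496 and 8184 on its brightest probe set, at 0.21, but 4955 with p53 on and 7088 with p53 off on the second, at -0.52. For PGD and TKT, then, the direction differed between probe sets.

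**Figure D3:**
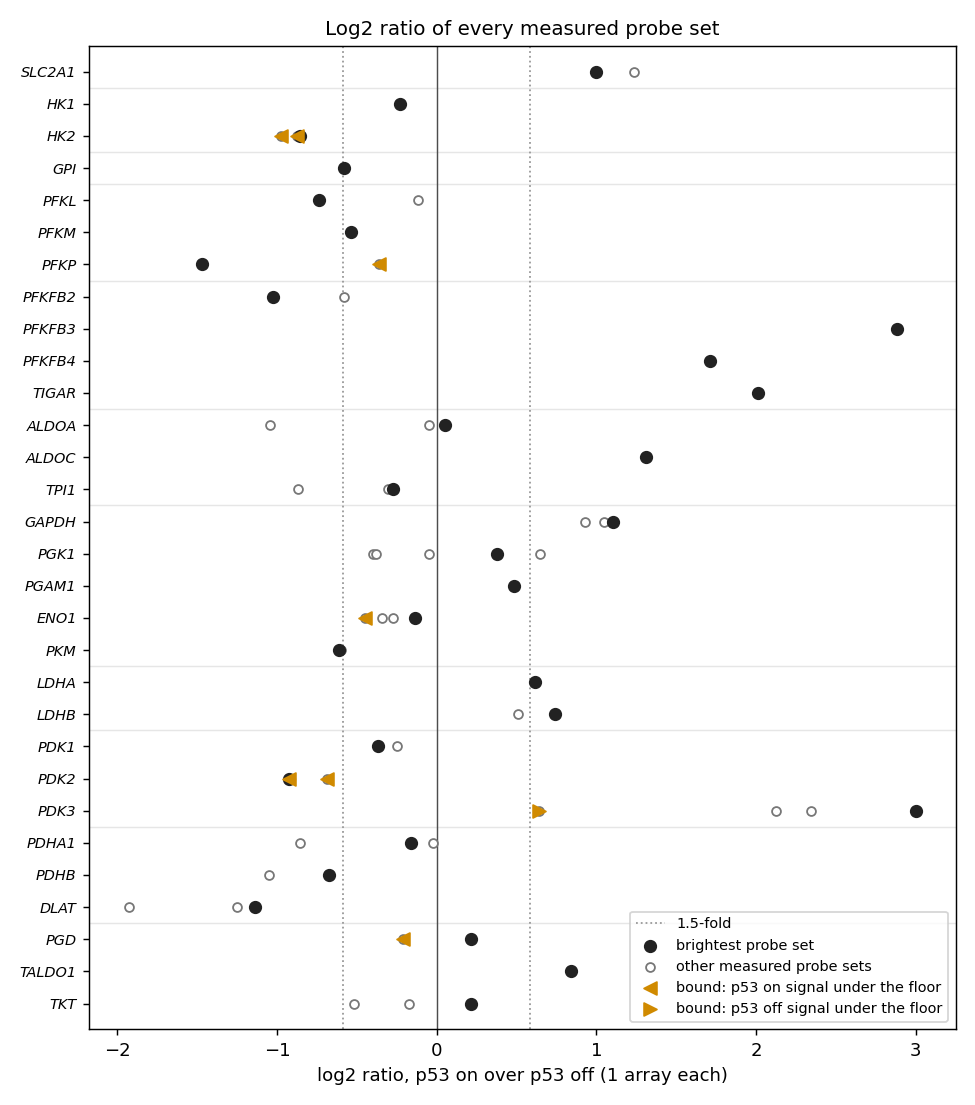
Log2 ratio of p53 on over p53 off for each of the 64 measured probe sets of the 30 genes, in pathway order, with the brightest probe set of each gene filled and the others open; triangles mark bounds, where 1 signal was under the floor. The phosphofructokinase and pyruvate dehydrogenase subunit genes lie left of 0 on all probe sets, PFKFB3, PFKFB4, TIGAR and PDK3 lie right of it, and ALDOA, PGK1, PGD and TKT have probe sets on both sides.

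Several probe sets per gene were the only repeat measurement. Of the 20 pathway genes with at least 2 measured ones, 16 had a single sign over all of them (80.0%). Of 6680 such genes on the array the share was 58.6%. Bounds were counted by their sign, and the part of signal level in this difference was not tested. ALDOA, PGK1, PGD and TKT were the 4 with mixed signs, and each was within 1.5-fold on its brightest probe set. Every measured probe set passed 1.5-fold upwards for 3 of the 20 genes, SLC2A1, GAPDH and PDK3, and downwards for 5, HK2, PKM, PDK2, PDHB and DLAT, against 11.3% upwards and 10.4% downwards of the 6680 genes. The median distance in log2 ratio between a pathway gene's other probe sets and its brightest was 0.34, against 0.56 over all genes. Probe sets of 1 gene share the RNA and the array and are not biological replicates.

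**Figure D4:**
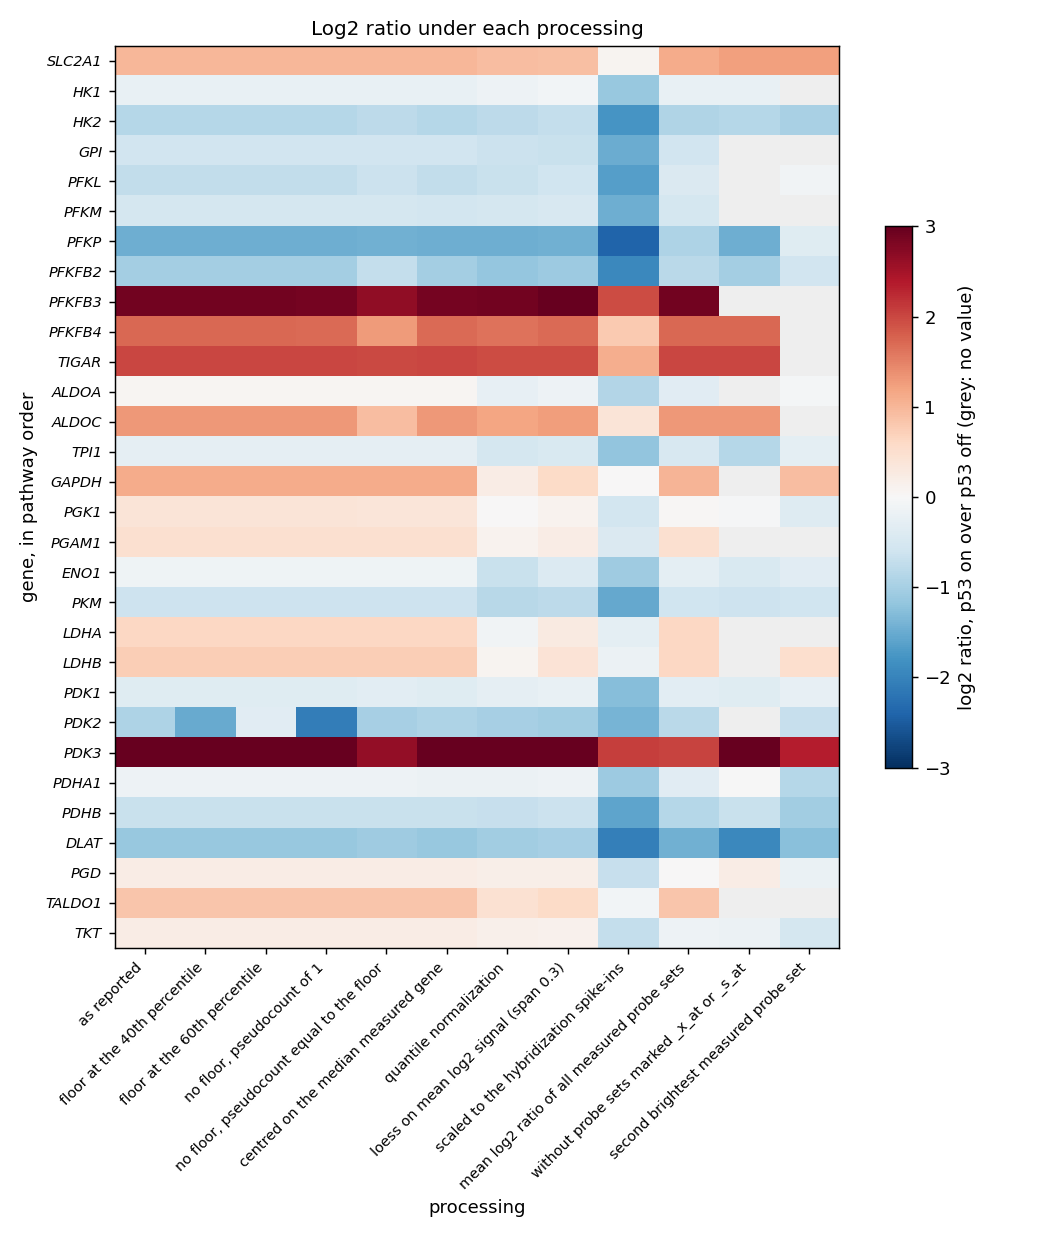
Log2 ratio of p53 on over p53 off (color) for the 30 measured genes in pathway order, as reported (left column) and under the 11 other settings of floor, scaling and choice of probe set; grey cells have no value. PFKFB3, PFKFB4, TIGAR and PDK3 are above 0 in every column with a value, PFKL, PFKM, PFKP and DLAT are below 0, and LDHA, LDHB and TALDO1, all past 1.5-fold as reported, are below 0 with spike-in scaling, as is LDHA after quantile normalization.

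Other genes of carbohydrate metabolism were set beside the panel. Of 43 such genes, 28 were measured. By 1.5-fold or more, 6 of these were higher (21.4%) and 8 lower (28.6%), against 25.9% each way over all measured genes. Their median log2 ratio was -0.27. Those past 2-fold were PDPR, PC, TKTL1 and BSG. PDPR, which regulates the phosphatase that reactivates pyruvate dehydrogenase, had 823.4 with p53 on and 373.2 with p53 off and was 2.21-fold higher. PC, the pyruvate carboxylase, had 575.8 and 282.9 and was 2.04-fold higher. TKTL1, a transketolase-like gene, had 238.7 and 12.8 and was at least 2.12-fold higher. BSG, the chaperone of the lactate transporters MCT1 and MCT4, had 2855 with p53 on and 6223 with p53 off and was 2.18-fold lower.

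In the tricarboxylic acid cycle, which takes up the acetyl-CoA made from pyruvate, none of 13 measured genes was higher by 1.5-fold and 6 were lower (46.2%). Over all measured genes these shares were 25.9% each. Their median log2 ratio was -0.04. OGDH, of the oxoglutarate dehydrogenase complex, had 242.8 with p53 on and 792.6 with p53 off and was 3.26-fold lower. SUCLA2, a subunit of succinyl-CoA synthetase, had 1725 and 4249 and was 2.46-fold lower. The shares of these lists are descriptions of 2 arrays and were not tested against the panel or against all measured genes.

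**Figure D5:**
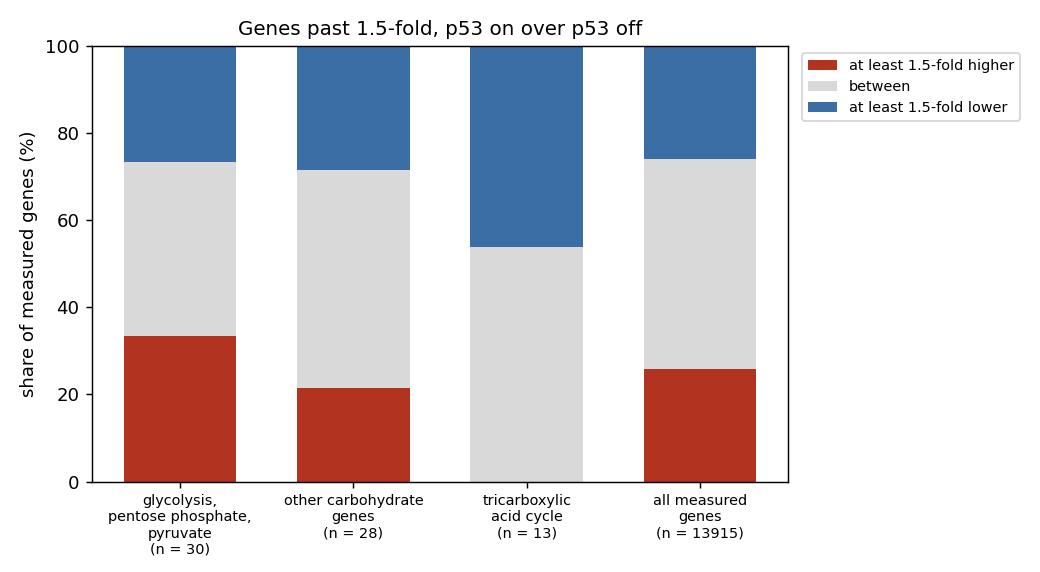
Share in percent of measured genes at least 1.5-fold higher with p53 on (red, at the bottom of each bar), between, and at least 1.5-fold lower, for the 30 pathway genes, 28 other carbohydrate genes, 13 tricarboxylic acid cycle genes and all 13915 measured genes. The pathway genes split into 33.3% higher and 26.7% lower, and no tricarboxylic acid cycle gene was higher by that size.

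Promoters were looked at for the 3 genes with the highest ratios and for the one with the lowest, as the stretch of 250 bases before each start in RefSeq (GRCh38.p14). Sequences were found for 32 of the 35 genes, with 60 start sites, several of which overlap within a gene. Both motifs below were marked on both strands. ACGTG is the core to which the hypoxia-inducible factors bind and is also contained in the E-box CACGTG, which MYC and other factors bind. The p53 half-site was searched as its consensus with no mismatch. Capitals mark ACGTG in either orientation. None of the sequences shown holds a p53 half-site by this search, and sites elsewhere in the genes were not searched. The sequences show where the letters fall in PDK3 (chromosome X), PFKFB3 (chromosome 10, 2 start sites), TIGAR (chromosome 12) and PFKP (chromosome 10, the only one of its 4 start sites with ACGTG).
PDK3, chrX:24465036-24465285, plus strand: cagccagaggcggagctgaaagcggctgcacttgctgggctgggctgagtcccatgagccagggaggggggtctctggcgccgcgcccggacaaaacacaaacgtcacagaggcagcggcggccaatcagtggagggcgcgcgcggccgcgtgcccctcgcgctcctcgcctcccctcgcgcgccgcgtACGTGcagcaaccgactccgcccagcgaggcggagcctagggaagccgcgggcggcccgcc
PFKFB3, chr10:6144671-6144920, plus strand: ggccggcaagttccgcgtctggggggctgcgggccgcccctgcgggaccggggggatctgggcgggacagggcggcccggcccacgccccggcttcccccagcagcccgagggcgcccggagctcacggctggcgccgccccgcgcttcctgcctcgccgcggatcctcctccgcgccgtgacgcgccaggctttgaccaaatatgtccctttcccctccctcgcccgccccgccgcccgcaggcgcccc
PFKFB3, chr10:6202682-6202931, plus strand: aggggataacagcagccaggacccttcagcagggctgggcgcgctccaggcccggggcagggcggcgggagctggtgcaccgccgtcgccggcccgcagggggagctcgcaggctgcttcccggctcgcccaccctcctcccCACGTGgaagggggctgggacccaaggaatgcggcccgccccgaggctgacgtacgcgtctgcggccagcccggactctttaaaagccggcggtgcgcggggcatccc
TIGAR, chr12:4320963-4321212, plus strand: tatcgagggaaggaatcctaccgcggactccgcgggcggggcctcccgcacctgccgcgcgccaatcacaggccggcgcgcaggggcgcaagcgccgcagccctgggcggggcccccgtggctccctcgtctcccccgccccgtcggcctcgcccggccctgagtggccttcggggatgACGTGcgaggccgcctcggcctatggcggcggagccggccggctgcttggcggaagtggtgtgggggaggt
PFKP, chr10:3068939-3069188, plus strand: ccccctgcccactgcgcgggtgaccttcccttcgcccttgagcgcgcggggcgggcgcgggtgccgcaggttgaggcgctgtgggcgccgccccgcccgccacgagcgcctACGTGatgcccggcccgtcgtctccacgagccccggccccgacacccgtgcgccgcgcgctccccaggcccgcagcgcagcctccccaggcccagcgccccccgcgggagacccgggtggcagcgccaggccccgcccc

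ACGTG stood before PDK3, TIGAR and the second start of PFKFB3, where it lay in the palindrome CACGTG, and also before 1 start of PFKP, the gene with the lowest ratio. It was found at 23 of the 60 start sites of the pathway genes (38.3%), against 18.5% of 35116 start sites of all genes, and CACGTG at 8 of them (13.3%), against 6.34%. The p53 half-site was found at 3 of the 60 (5.0%), against 5.57% of all start sites. These were overlapping stretches of HK1 and 1 stretch of PGAM1. The stretches of the pathway genes were richer in G and C, with a median of 68.4% against 58.0%, and the GC box GGGCGG was at 40 of them (66.7%), against 42.6%. The part of base composition in these shares was not tested. A match describes the letters of the stretch and shows no binding.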

How the data were processed

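Total RNA of 2 cultures, prepared with Trizol, was hybridized to 1 Affymetrix array per condition, per the labels' protocols. The deposited signal intensities, 1 per probe set on a linear scale, come from MAS5, as the submitters' processing notes name it. Its version was not given in the sources used here. Both arrays had a 2% trimmed mean of 499.9. No further normalization was applied. Leaving out controls, 54613 probe sets remained, of which 41091 carried 1 gene symbol, 1801 several and 11721 none in GEO's platform annotation. Symbols were updated by Entrez identifier to RefSeq for 41037. TIGAR was found under that name.

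A gene's value was that of its probe set with the largest mean over both arrays. The floor, 112.4, was the 50th percentile of the signals without controls, and a ratio against a floored signal is written "at least" or called a bound. Ratios are p53 on over p53 off, and calls were made by size, at 1.5-fold and 2-fold. There is no read depth; the number of arrays limits the precision. The calculation was run on simulated data, with planted changes larger than 1.5-fold and noise smaller than the spread between probe sets here. That run checks the arithmetic and gives no precision for these ratios.

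All 35 genes are accounted for. Of the other carbohydrate and tricarboxylic acid cycle lists, genes past 2-fold are named. The p53 target and marker lists are given as counts with few examples. The promoters shown were those of the 3 highest ratios and the lowest. The 35 genes, the lists and the settings were chosen with earlier results of these data known. The p53 gene is not reported here. Protein sequences were not used. The alternatives changed the floor (40th or 60th percentile, or none with 1 or 112.4 added to each signal), the scaling (quantile, loess with span 0.3, the median gene set to 0, or 18 spike-in probe sets) and the probe set: the mean of all measured probe sets, leaving out _x_at and _s_at probe sets, and the second brightest probe set. The software was Python 3.11.15, numpy 2.4.6, pandas 2.3.3, matplotlib 3.10.9 and statsmodels 0.14.6.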

Additional observations from a re-analysis of the deposited data

Results flagged for a closer look

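Control probe sets, which enter no gene ratio, showed a larger 3' excess on the p53 on array. For GAPDH the 3' signal was 1.77 times the 5' signal with p53 on and 0.97 times with p53 off. For beta-actin it was 7.29 times with p53 on and 1.37 times with p53 off.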

How the results depend on the processing

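Of the 18 pathway genes past 1.5-fold, 15 had the same sign under each of the 11 alternatives that gave a value, among them PFKFB3, PFKFB4, TIGAR, PDK3, PFKP and DLAT. The exceptions were LDHA, at -0.11 after quantile normalization and -0.30 with spike-in scaling, LDHB, at -0.18 with spike-in scaling, and TALDO1, at -0.079 with spike-in scaling. Sign was counted, not size, and a change of floor or an added constant cannot reverse it. Size fell within 1.5-fold for SLC2A1 (0.079), ALDOC (0.39) and GAPDH (0.011) with spike-in scaling. On the second brightest probe set it did so for PFKL (-0.12), PFKP (-0.36, a bound), PFKFB2 (-0.58) and LDHB (0.51). PDK2 had a bound of -0.34 with the floor at the 60th percentile. With 1 measured probe set each, PFKFB3, PFKFB4 and TIGAR could not change by the mean of probe sets. The count at least 1.5-fold higher was 6 of 31 (19.4%) after quantile normalization and after loess and 4 of 31 (12.9%) with spike-in scaling. The shares of all genes were 23.6%, 24.8% and 9.55%. Without _x_at and _s_at probe sets the count was 5 of 19 measured genes (26.3%), against 26.5% of all genes. On the second brightest probe set it was 3 of 20 measured genes (15.0%), against 23.2% of all genes. The spike-ins read 1.89 times as high with p53 on. Scaled to them, 18 of 31 genes were lower by 1.5-fold (58.1%, against 58.7% of all genes), 15 by 2-fold, and 3 were higher by 2-fold. With the mean of all measured probe sets 1 was at least 2-fold lower, and on the second brightest 2 were at least 2-fold higher. The share of all genes at 2-fold is not given for these settings or for spike-in scaling. Their 2-fold counts thus cannot be set against the array. The median log2 ratio was -0.16 after quantile normalization and -0.87 with spike-in scaling, against -0.07 and -0.80 over all genes. It was -0.26 with the mean of all measured probe sets, against -0.02 over all genes. Without _x_at and _s_at probe sets it was -0.23, against 0.04, and on the second brightest -0.35, against -0.06. Under these choices of probe set the pathway median minus that of all genes was -0.25, -0.27 and -0.29, against -0.05 as reported. Spike-in scaling divided every p53 on signal by 1.89. Fewer genes were measured without _x_at and _s_at probe sets and on the second brightest, and the part of this in those medians was not tested. For the rest the cause was not tested. A gene's ratio was taken to have moved past 0.59. That is a robust estimate of the SD between probe sets of the same gene, from the median distance of 0.56 over all genes. No paired analysis was possible because each condition has 1 array.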
